A study of Mus musculus with 17 samples.

Results

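A large set of probes on the mouse array is named by a stretch of genome and a strand instead of a transcript, and these probes target presumed long noncoding RNA between genes. The results below describe those position-named probes whose forestomach signal (Cy5) the scanner software called well above background on 4 or more of the 17 arrays. They numbered 4726 of 16194 position-named probes (29.2%), out of 55681 probes in all. The members were chosen by their Cy5 detection, so their presence in the forestomach channel is a description and was not tested. The positions are those of mouse build mm9, as the scanner files name it. F and R at the end of a name are read here as the forward and the reverse strand, which the files do not spell out. Probe sequences, the mm9 genome and gene positions on mm9 were not used here. No sequence is therefore printed, no gene is assigned to a region as its neighbour, and the intergenic and noncoding character of the regions was not checked.

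The study asked how the forestomach, the squamous-lined upper part of the rodent stomach, responds to swallowed benzo(a)pyrene (BaP), a polycyclic aromatic hydrocarbon of tobacco smoke and charred food. Each array set 1 animal against a common reference. The forestomach RNA, in Cy5, came from male MutaTMMouse animals, a transgenic strain carrying a bacterial reporter for mutation assays, aged 24 to 26 weeks. Universal Mouse Reference RNA, a pool from 11 mouse cell lines, was in Cy3. The control group received olive oil alone (n = 5, replicates 1 to 5). The exposed groups received BaP in olive oil at 25 mg/kg per day (n = 4, replicates 6 to 9), 50 mg/kg per day (n = 4, replicates 12 to 15) or 75 mg/kg per day (n = 4, replicates 17 to 20). Gavage was daily for 28 days, and the animals were killed 72 hours past the final one. RNA came from random sections of whole frozen forestomach, so fewer cells of a type and less RNA per cell cannot be told apart. Samples of a group are biological replicates per the series design, and no array had its dyes swapped.

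Long noncoding RNAs are transcribed by RNA polymerase II, and many are spliced and polyadenylated like messenger RNA without coding for a protein. Many are restricted to a few tissues and are present at low levels, and some act on chromatin or on neighbouring genes, while others are precursors of small RNAs or by-products of transcription from enhancers. BaP activates the aryl hydrocarbon receptor, a ligand-driven transcription factor, and its metabolites form bulky DNA adducts that activate the tumour suppressor p53.

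The members covered much of the genome sparsely. They carried 2504 of 4610 strand-specific names, 2066 of 3543 intervals and 1449 of 2226 loci, a locus being a run of overlapping intervals on either strand. A single member stood for 1327 of those names and 2 or more members for 1177, with at most 10 members under 1 name. Of the members, 2261 lay on strand F, 2460 on strand R and 5 under names without a strand. The median length of the named region was 11972.5 bases for names with a member and 8768 bases for names without one. On each chromosome between 23.0% (chromosome 13) and 36.0% (chromosome 17) of the position-named probes were members.

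**Figure D1:**
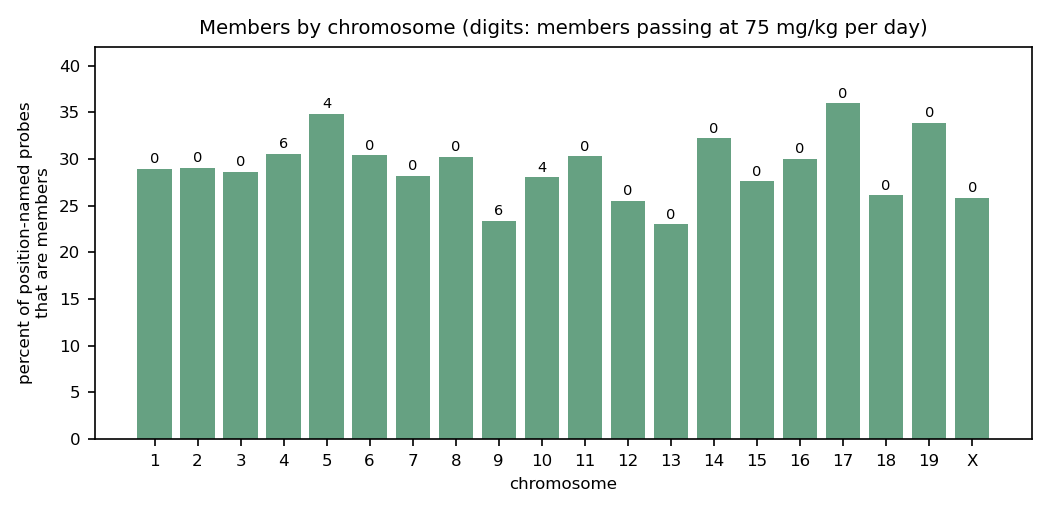
Share of position-named probes on each chromosome that were members (bars, percent, from 0), with the number of members passing the test at 75 mg/kg per day against control printed above each bar. The bars lie between 23.0% and 36.0%, and the passing members are on chromosomes 4, 5, 9 and 10.

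Detection set the outer limit of what could be seen. Of the members, 2332 were well above background on all 17 arrays and 233 on exactly 4. Just outside the minimum lay 274 position-named probes detected on exactly 3 arrays, 1768 probes were detected on 1 to 3 arrays, and 9700 were detected on none. At 75 mg/kg the change against control of those detected on exactly 4 arrays ran from -0.34 to 0.59 log2 units, and of those on exactly 3 from -0.36 to 0.42. Detection in Cy5 was absent on every array of a group for 89 members in controls, 167 at 25, 201 at 50 and 28 at 75 mg/kg. The same counts over all probes were not worked out, and arrays differed in the share of probes detected. These counts therefore show no dose effect by themselves. No member was detected in 1 group only.

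Between 3051 and 4457 members were well above background on a single array, and 39.9% to 50.7% of all probes. The median Cy5 signal of an array was 75.5 to 96 over a local background of 64 to 74.5, which limits the precision for weak members. The arrays came from 3 slides, and each slide held all 4 groups. The 4 arrays of slide 3 (control 5, and replicates 9, 15 and 20) stood apart from the other 13 on the first principal component of the members, which held 25.7% of their variance. Calls are therefore given with and without slide 3 where they differ. Squamous epithelial markers (keratins, desmosomal and cornified envelope genes, 17 of 17 measured) had a mean log2 ratio of 3.80 to 4.79 on every array, far above the cell line pool.

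As a description, most members had a log2 ratio between -1 and 1 in controls. The log2 ratio of Cy5 over Cy3 in controls had a median of 0.14 over the members, with 5th and 95th percentiles of -0.71 and 1.10. Over 17632 probes of protein-coding (NM_) transcripts the same percentiles were -1.35 and 2.26. For position-named probes below the detection minimum they were -0.25 and 0.15. The members were dimmer in Cy5 than the NM_ probes, and the part of weak signal in their narrower spread was not tested. A small ratio therefore need not mean a level like that of the pool. Of the members, 285 had a control ratio above 1 and 122 a ratio below -1 on the log2 scale. The highest control ratio belonged to chr17:56687541-56694631 R, at 7.35, 7.01, 7.07, 6.90 and 7.58 on control replicates 1 to 5. Its ratio at 75 mg/kg was 7.41, 7.27, 6.85 and 7.26, so the groups overlapped. The next were a member on chromosome 18 (control mean 5.24), chr2:180161459-180189542 R (4.42) and chr14:115366426-115441225 F (3.97). The lowest control ratios were those of chrX:102222494-102267068 R (-3.42), chr1:175705225-175717250 R (-3.01), chr11:97457180-97487074 R (-2.99) and chr17:95150800-95180650 F (-2.96), all lower in the forestomach than in the cell line pool. None of these 8 passed the test against control at any dose.

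Few members changed with BaP, and those that did lay in a handful of regions. At 75 mg/kg per day against control, 20 of 4726 members passed (limma, Benjamini-Hochberg adjusted p under 0.05 over all 27601 probes tested), 15 higher and 5 lower. Over all probes tested the share passing was 0.855% in either direction (0.699% higher, 0.156% lower), against 0.423% of the members. Of the NM_ probes 1.04% passed, and the part of their greater brightness in this was not tested. The 20 members carried 9 names at 7 loci on chromosomes 4, 5, 9 and 10, and probes of 1 region share their target, so 20 is not the number of separate events. Of the members, 366 reached the minimum of 4 arrays only with the help of their 75 mg/kg arrays, and 1 of the 20 (A_30_P01017743) was among them; its call was favoured by that choice, and without such members 19 passed (14 higher). In 18 of the 20 the 75 mg/kg arrays did not overlap the control arrays, and in all 20 the difference had the same sign within each of the 3 slides. The 20 were picked by this same comparison on these same arrays, so both counts describe them and add no support. Over all members 116 (2.45%) did not overlap (69 higher, 47 lower), beside 3.18% of all probes tested (1.85% higher, 1.33% lower).

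The number depended on single arrays and on scaling. It was 13, 12 and 9 without control replicates 1, 3 and 4, and 8, 7 and 7 without 75 mg/kg replicates 17, 18 and 20. Without slide 3 it was 16, all higher, of which 12 were among the 20. With each array centred on its median in place of loess it was 8, all higher, and that scaling shifted the median change of all probes from -0.01 to 0.17. With slide as a block it was 35 (28 higher, 7 lower) and included all 20. The share of all probes passing under each of these settings was not worked out. Whether the members gained or lost calls relative to the whole array is therefore not known.

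At the lower doses no member passed. At 50 mg/kg the count was 0, beside 0.0326% of all probes tested. An unadjusted p under 0.05 (limma) was found for 213 members (4.51%), beside 6.46% of all probes. With slide as a block 2 members passed at 50 mg/kg, and the share of all probes passing under that setting was not worked out. At 25 mg/kg the count was 0, beside 0.0109% of all probes, and 139 members (2.94%) had an unadjusted p under 0.05 (limma), beside 3.19%. At 50 mg/kg 61 members (1.29%) and at 25 mg/kg 52 members (1.1%) did not overlap the controls, beside 2.05% and 0.982% of all probes tested. With dose fitted as a straight line 18 members (0.381%) passed, 14 higher and 4 lower. Over all probes tested 1.09% passed on the line (0.851% higher, 0.239% lower). Of the 18 members, 17 were among the 20 at 75 mg/kg. Comparing 75 with 25 mg/kg directly, 3 members (0.0635%) passed (1 higher, 2 lower), beside 0.0471% of all probes (0.0217% higher, 0.0254% lower). In that comparison 120 members (2.54%) did not overlap, beside 3% of all probes. The comparisons with control share the same 5 control arrays, so their changes are not independent of each other.

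The bulk of the members showed small changes. The median change at 75 mg/kg was -0.01 log2 units, as it was over all probes tested, and the median standard error was 0.12. The 5th and 95th percentiles were -0.26 and 0.25 for members and -0.33 and 0.34 for all probes. A rise above 1 log2 unit was fitted for 9 members and a fall below -1 for 4. The plot of these changes shows narrower tails for the members than for the NM_ probes on both sides. The members were also the dimmer set, and the part of brightness in these tails was not tested.

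**Figure D2:**
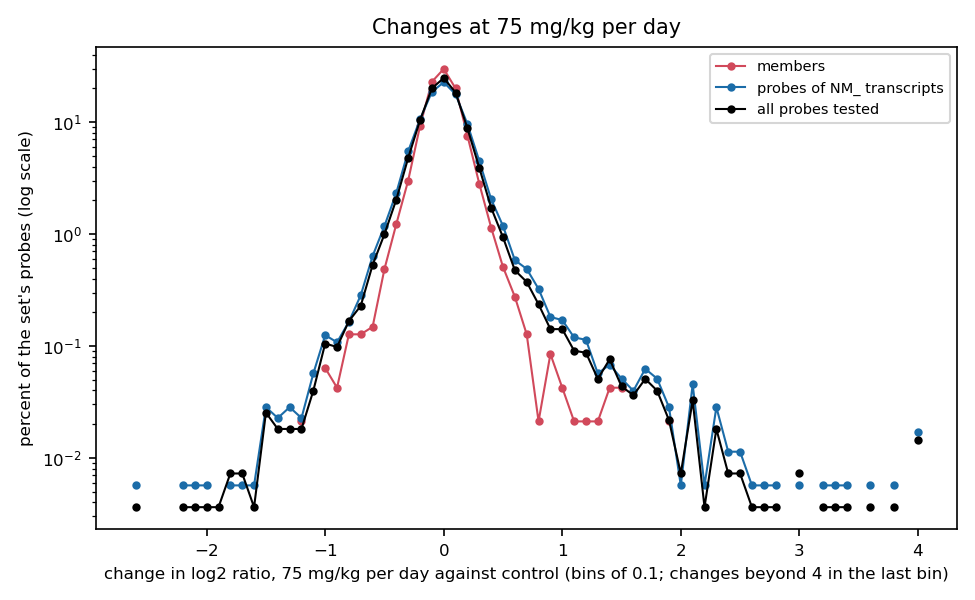
Percent of each set's probes (y axis, log scale) by change in log2 ratio at 75 mg/kg per day against control (x axis, bins of 0.1), for the 4726 members, the 17632 NM_ probes and all 27601 probes tested. The members' 5th and 95th percentiles are -0.26 and 0.25, against -0.33 and 0.34 over all probes.

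The strongest of the high-dose rises was at chr4:88583425-88584070 R, a region of 646 bases whose 3 probes all rose at 75 mg/kg. Probe A_30_P01019307 read -1.24, -1.47, -0.99, -1.62 and -1.22 in controls (replicates 1 to 5) and -0.90, -0.71, -0.99 and -0.98 at 25 mg/kg. It read 0.51, -0.43, -0.66 and -0.67 at 50 mg/kg, and 0.97, 0.52, -0.11 and 0.84 at 75 mg/kg. Every array at 50 and 75 mg/kg lay above every control, and replicate 12 stood above the other 50 mg/kg arrays. The change at 75 mg/kg was 1.86 ± 0.24 (standard error of the fit), a 3.63-fold rise, with a limma adjusted p of 0.00114. Probes A_30_P01027753 and A_30_P01018315 rose by 1.42 ± 0.23 and 1.28 ± 0.21, with limma adjusted p of 0.00549 and 0.00508.

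Against 25 mg/kg, the 75 mg/kg arrays of A_30_P01019307 were higher by 1.45 ± 0.25 (limma adjusted p = 0.0469). The fitted changes of the 3 probes at 25 mg/kg were 0.22 to 0.41 and at 50 mg/kg 0.63 to 0.99, none passing. All 3 calls at 75 mg/kg held when any 1 array was left out, with a highest adjusted p of 0.0307 (limma). Without slide 3 that of A_30_P01027753 was lost (change 1.33, limma adjusted p = 0.0524). A longer region on the same strand, chr4:88542373-88589148 R, contains this one, and its 2 members had fitted changes of 0.43 and 0.57 (limma adjusted p = 0.151 and 0.138, Cy5 detected on 4 and 5 arrays). With slide as a block the second passed (0.61, limma adjusted p = 0.0275). The only member on the opposite strand of the longer region had a change of -0.05.

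At chr4:149445201-149445902 F, 702 bases long, all 3 probes also rose, with intermediate values at both lower doses. Probe A_30_P01024344 read -0.70, -0.37, -0.80, -0.23 and -0.32 in controls. It read 0.26, 0.16, 0.01 and 0.28 at 25 mg/kg and -0.02, 0.19, -0.24 and 0.01 at 50 mg/kg. At 75 mg/kg it read 0.63, 0.32, 0.51 and 0.83, above every array of the other groups. The change at 75 mg/kg was 1.06 ± 0.13, a 2.08-fold rise (limma adjusted p = 0.00114). Probe A_30_P01025511 rose by 0.94 ± 0.12 and probe A_30_P01032002 by 0.63 ± 0.10, with limma adjusted p of 0.00123 and 0.00368.

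At 25 mg/kg the fitted changes of the 3 probes were 0.42 to 0.66, and their arrays did not overlap the controls. At 50 mg/kg the changes were 0.35 to 0.47. Neither dose passed over all probes (lowest limma adjusted p = 0.689 and 0.393). The 3 calls at 75 mg/kg held in each of the 17 fits that left out an array (highest limma adjusted p = 0.0213), without slide 3 (0.0165 at most) and under the other alternatives run. No member of the enclosing region chr4:149383134-149451259 passed. Its member on strand F had a change of -0.23 and its 4 members on strand R had changes of -0.14 to 0.18 (limma adjusted p of 0.553 or more).

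At a locus on chromosome 9, members on both strands rose. The probes are named for the overlapping regions chr9:78104935-78116974 F, chr9:78107225-78118850 F and chr9:78107225-78118850 R. All 8 members had fitted changes above 0 at 75 mg/kg and 6 passed: all 3 on strand F and 3 of 5 on strand R. Probe A_30_P01018914 (strand F) read 3.98, 3.05, 3.38, 3.28 and 4.17 in controls and 4.31, 5.45, 4.31 and 4.80 at 25 mg/kg. It read 5.15, 4.44, 4.27 and 5.30 at 50 mg/kg and 5.07, 5.51, 4.47 and 5.39 at 75 mg/kg. Every dosed array lay above every control, and the dose groups overlapped one another.

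The change of this probe was 1.15 ± 0.30, 1.22 ± 0.30 and 1.54 ± 0.30 at 25, 50 and 75 mg/kg, of which the last, a 2.91-fold rise, passed (limma adjusted p = 0.0184). Its neighbour A_30_P01028766 rose by 1.46 ± 0.28 and A_30_P01020518 by 1.18 ± 0.24 at 75 mg/kg, with limma adjusted p of 0.0175 and 0.0247. On strand R probe A_30_P01021311 rose by 1.36 ± 0.29, A_30_P01019873 by 0.85 ± 0.19 and A_30_P01033583 by 0.85 ± 0.17, with limma adjusted p of 0.0329, 0.0469 and 0.0217. The other 2 members on strand R had changes of 0.61 and 0.57 (limma adjusted p = 0.0533 and 0.284), of which the first (A_30_P01023273) passed with slide as a block (0.60, limma adjusted p = 0.00295). Probe A_30_P01019873 was well above background in Cy3 on 0 arrays and A_30_P01021311 on 1, so their ratios rest on a reference signal near background.

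All 6 calls on chromosome 9 were lost when 75 mg/kg replicate 17, 18 or 20 was left out, with limma adjusted p from 0.0508 to 0.175. Leaving out control replicate 3 or 4 ended 5 of them each (0.0529 to 0.123) and control replicate 1 ended 2 (0.0645 and 0.115). Control replicate 2, 50 mg/kg replicates 12 and 13 and each 25 mg/kg replicate ended that of A_30_P01019873 alone (0.0545 to 0.0819). Without slide 3 that of A_30_P01018914 was lost (limma adjusted p = 0.0508), and with slide as a block all 6 passed (0.00503 or less). Median centring ended 4 of the 6 (limma adjusted p from 0.0543 to 0.101), the signals processed by the scanner software 4 (0.0603 to 0.345) and a fit of only the groups compared 3 (0.0646 to 0.0832). No background correction, no filter on dim probes and the authors' series table ended 2 each (0.0506 to 0.109). The remaining 3 probes on strand F of the locus were not detected in Cy5 on any array. Gsta1, a glutathione transferase gene known to lie on the same chromosome, had its own transcript probe, with a control ratio of 3.64 and changes of 1.03, 1.01 and 1.34 at 25, 50 and 75 mg/kg. Gsta2, another glutathione transferase gene, had a control ratio of 4.61 and changes of 0.33, 0.72 and 1.09 at these doses. The 3 strand F members had control ratios of 3.57 to 3.61. Whether these regions overlap a Gsta gene on mm9, and so whether their probes are intergenic, was not tested.

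**Figure D3:**
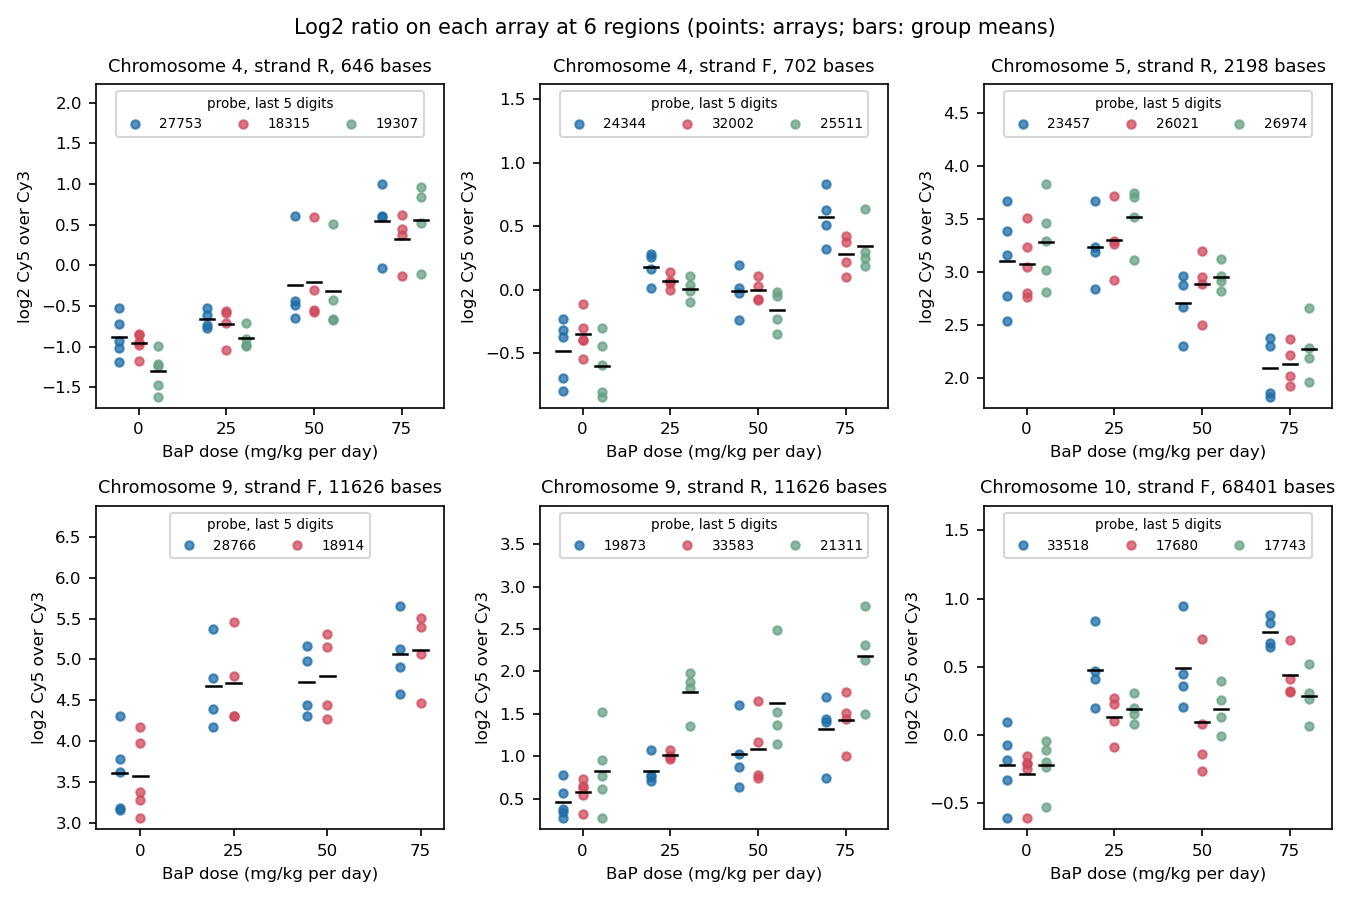
Log2 ratio of Cy5 over Cy3 on each of the 17 arrays (points) by BaP dose for the members that passed at 6 regions with 2 or more such members, with group means (bars); each panel has its own y axis. At the chromosome 5 region the 75 mg/kg means are the lowest of their groups, and at the other 5 regions they are the highest.

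At chr10:83181374-83249774 F, a region of 68401 bases, 3 of 5 members rose at 75 mg/kg, 1 of them (A_30_P01017743) a member through its 75 mg/kg arrays. Probe A_30_P01033518 read -0.19, -0.61, 0.10, -0.33 and -0.07 in controls and 0.84, 0.20, 0.47 and 0.41 at 25 mg/kg. It read 0.45, 0.20, 0.36 and 0.95 at 50 mg/kg and 0.67, 0.64, 0.82 and 0.88 at 75 mg/kg, and no dosed array overlapped the controls. Its change was 0.97 ± 0.16 at 75 mg/kg, a 1.97-fold rise (limma adjusted p = 0.00645), after 0.70 at 25 and 0.71 at 50 mg/kg. Probe A_30_P01017680 rose by 0.73 ± 0.16 and A_30_P01017743 by 0.51 ± 0.12, with limma adjusted p of 0.0460 and 0.0454.

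Probe A_30_P01017743 was not well above background in Cy5 on any control array, on 2 arrays at 25, 1 at 50 and 4 at 75 mg/kg. Its control level is therefore only bounded, and its call is no support for the region since it met the detection minimum through the group where it was high. The Cy5 channel alone gave it a change of 0.37 (limma adjusted p = 0.0708). The other 2 members of the region had changes of 0.75 and 0.67 (limma adjusted p = 0.0718 and 0.174), of which the first (A_30_P01024970) passed with slide as a block (0.74, limma adjusted p = 0.00708). The 3 members of the overlapping region chr10:83185606-83225506 F had changes of 0.54 to 0.70 (limma adjusted p of 0.0935 or more), of which A_30_P01032460 passed with slide as a block (0.69, limma adjusted p = 0.0221). A near-identical interval ending at 83249918 had 1 member on strand F, with a change of 0.02, and 3 on strand R, with changes of -0.07 to 0.01. The 2 members on strand R of the first interval had changes of 0.12 and 0.19, and none of these 6 passed.

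The call of A_30_P01033518 held in all 17 fits without 1 array (highest limma adjusted p = 0.0306) and without slide 3 (0.0220), while that of A_30_P01017743 was lost without slide 3 (change 0.46, limma adjusted p = 0.130). Median centring ended all 3 calls of the region (changes 0.42 to 1.10, limma adjusted p from 0.0670 to 0.205). The Cy5 channel alone and no filter on dim probes ended 2 each (0.0566 to 0.110), and no background correction, the authors' series table and only the groups compared 1 each (0.0537 to 0.160). The calls of A_30_P01017680 and A_30_P01017743 were lost in 14 and 13 of the 17 fits. Each array other than 50 mg/kg replicates 13 and 15 ended at least 1 of these 2 calls when left out, with limma adjusted p from 0.0514 to 0.170.

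**Figure D4:**
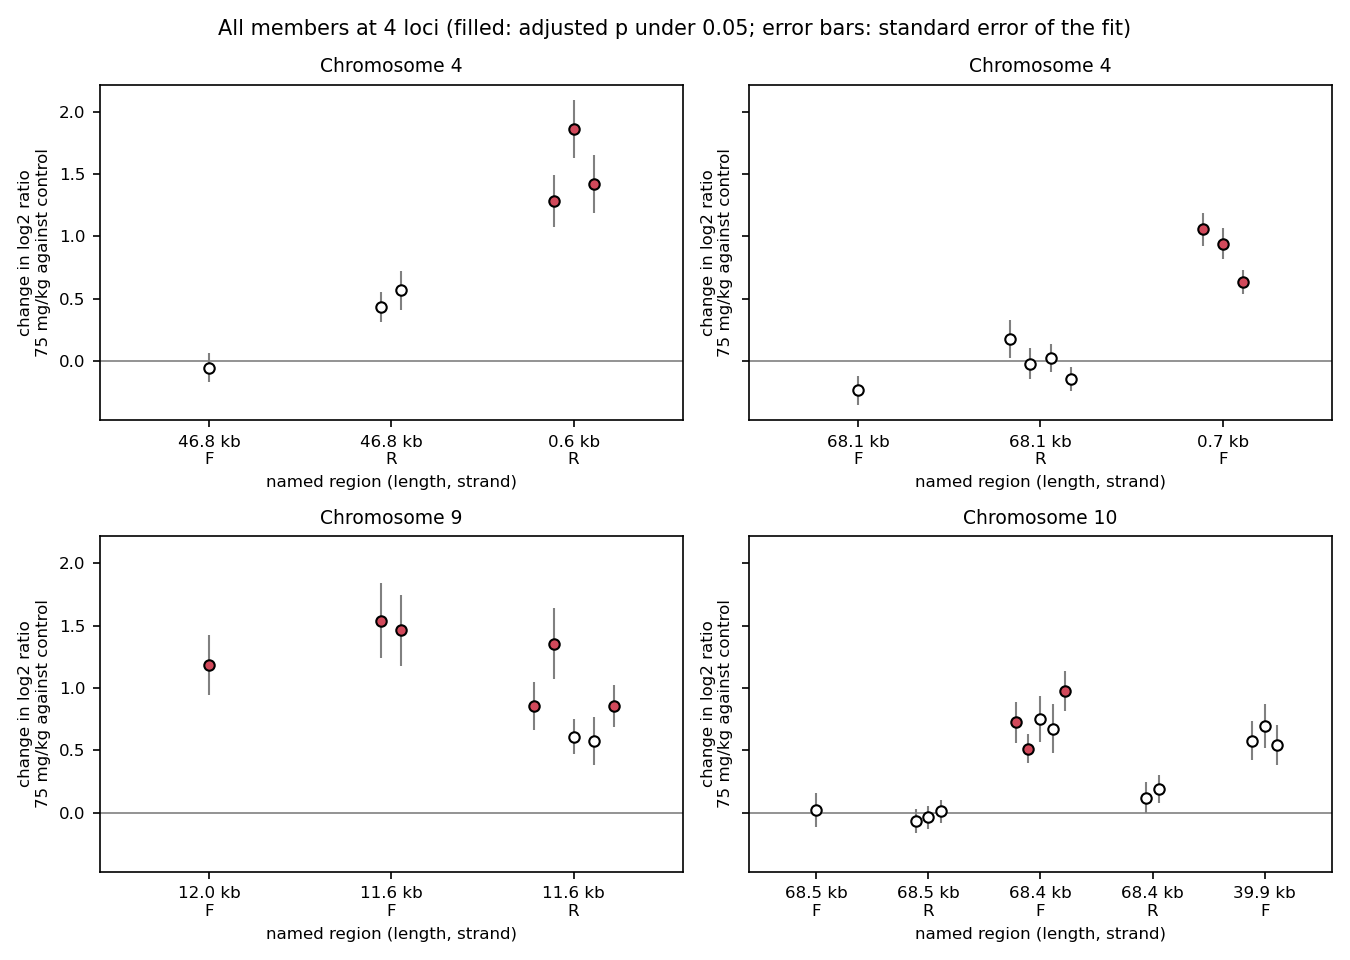
Change in log2 ratio at 75 mg/kg per day against control (y axis, with the standard error of the fit) for every member at 4 loci, by the length and strand of the named region (x axis). Filled points passed at an adjusted p under 0.05: they lie on strand R only at the first chromosome 4 locus, on strand F only at the second and at the chromosome 10 locus, and on both strands at the chromosome 9 locus.

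The lower members lay mainly at 1 place on chromosome 5. All 3 probes of chr5:152006587-152008784 R, a region of 2198 bases, and the single probe of chr5:152029557-152030218 R, 20.8 kb farther on the same strand, fell at 75 mg/kg. Probe A_30_P01026974 read 3.29, 2.81, 3.02, 3.46 and 3.83 in controls and 3.75, 3.71, 3.12 and 3.52 at 25 mg/kg. It read 2.96, 2.92, 2.82 and 3.13 at 50 mg/kg and 1.96, 2.28, 2.66 and 2.20 at 75 mg/kg. All 75 mg/kg arrays lay below every array of the other groups, and the other groups overlapped. The ratio fell by 1.01 ± 0.19 on the log2 scale, to 0.497 of the control level (limma adjusted p = 0.0137).

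Probes A_30_P01026021 and A_30_P01023457 fell by 0.94 ± 0.18 and 1.02 ± 0.22, with limma adjusted p of 0.0166 and 0.0383. Probe A_30_P01023097 of the second region fell by 0.73 ± 0.17 (limma adjusted p = 0.0469). At 25 mg/kg all 4 fitted changes were above 0 (0.13 to 0.24, none passing) and at 50 mg/kg all 4 were below 0 (-0.40 to -0.19, none passing). The direct comparison of 75 with 25 mg/kg passed for A_30_P01026974 (-1.25 ± 0.20) and A_30_P01026021 (-1.17 ± 0.19), both with a limma adjusted p of 0.0336. Even at 75 mg/kg the mean ratio of the 3 probes of the first region was 2.09 to 2.28, above the reference pool.

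These calls on chromosome 5 depended on the arrays and the scaling used. Without slide 3 all 4 calls were lost (changes -0.84 to -0.57, limma adjusted p from 0.0869 to 0.192), and under median centring all 4 were lost (-0.69 to -0.43, 0.431 to 0.465). Leaving out 75 mg/kg replicate 18 or 20 ended all 4 (0.0508 to 0.157), and replicate 17 or control replicate 4 ended 3 each (0.0539 to 0.120). Control replicates 1 and 5, 25 mg/kg replicate 9 and 50 mg/kg replicate 14 ended 2 each. Control replicate 3, 25 mg/kg replicates 6 and 7, 50 mg/kg replicate 13 and 75 mg/kg replicate 19 ended 1 each, and the adjusted p of these 9 fits lay between 0.0540 and 0.115. A fit of only the groups compared ended 3 (0.0641 to 0.101), no filter on dim probes 2 (0.0580 and 0.0665) and the processed signals 1 (0.563). With slide as a block all 4 passed (0.0306 or less).

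A single member fell at chr10:81680941-81704964 F. Probe A_30_P01027863 read 1.32, 0.86, 0.52, 0.99 and 0.64 in controls and 0.02, 0.06, 0.34 and 0.09 at 75 mg/kg, with no overlap. The change was -0.74 ± 0.15 (limma adjusted p = 0.0248), after -0.31 at 25 and -0.41 at 50 mg/kg. The other 2 members of the region had changes of -0.35 and -0.07 (limma adjusted p = 0.450 and 0.923), and its 3 members on strand R had changes of -0.08 to 0.09. The call was lost without control replicate 1 or 4, or without 75 mg/kg replicate 17, 18 or 20 (limma adjusted p from 0.0553 to 0.0977), and without slide 3 (0.0606). It was also lost under median centring (change -0.36, limma adjusted p = 0.528), from the processed signals (-0.51, 0.375) and with only the groups compared (0.0804).

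The dose line added 1 member. Probe A_30_P01031803 of chr17:17628846-17641021 R rose by 0.35 over the span from 0 to 75 mg/kg (limma adjusted p = 0.0388), while its change at 75 mg/kg, 0.35 ± 0.09, did not pass (0.0851). The other 3 members of that region had changes of -0.03 to 0.08, none passing. The dose line did not pass for 3 of the 20 members called at 75 mg/kg: A_30_P01017743 (limma adjusted p = 0.0561), A_30_P01023097 (0.0591) and A_30_P01020518 (0.0516).

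**Figure D5:**
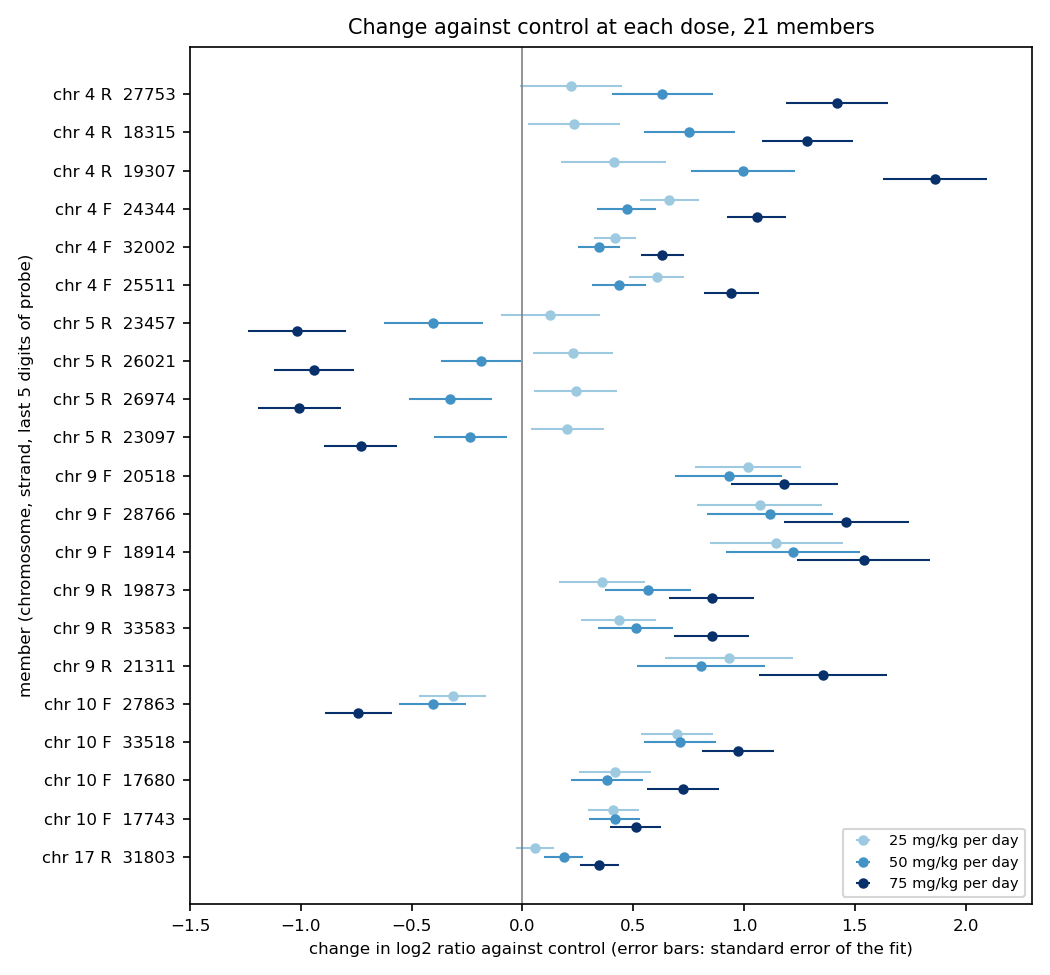
Change in log2 ratio against control (x axis) at 25, 50 and 75 mg/kg per day, with the standard error of the fit, for the 21 members that passed at 75 mg/kg or on the dose line. The 15 members higher at 75 mg/kg also had fitted changes above 0 at 25 and 50 mg/kg, while the 4 members on chromosome 5 were above 0 at 25 and below 0 at 50 and 75 mg/kg; no change at 25 or 50 mg/kg passed the test.

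A further region came near the threshold and is named after its values were seen. At chrX:135882029-135892277 R the 3 members had changes of -1.17, -0.85 and -0.85 at 75 mg/kg (limma adjusted p = 0.0980, 0.265 and 0.0669). Probe A_30_P01032480 read 1.85, 1.78, 1.13, 1.55 and 2.23 in controls and 0.52, 0.38, 0.77 and 0.48 at 75 mg/kg, without overlap. With slide as a block 1 of the 3 passed (A_30_P01019239, limma adjusted p = 0.0218).

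Members under 1 name differed somewhat less from each other than members at large. Over 4136 pairs of members under the same name, the median absolute difference of the change at 75 mg/kg was 0.11 log2 units, against 0.14 over all pairs of members. For the control ratio it was 0.24 against 0.41. Of 600 names with 3 or more members, 222 had all their members on the same side of 0 at 75 mg/kg. The number for members grouped without regard to name was not worked out, so this count shows no agreement by itself. Both strands were probed in 1067 intervals, of which 438 had members on both strands, 450 on 1 strand and 179 on neither. Within the 438 intervals the mean changes of the strands differed by a median of 0.10, for which no baseline was worked out.

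No member passed in the 3 intervals that held most members. At chr8:72663625-72673010, 15 of 18 probes were members (8 on strand F, 7 on strand R). Their control ratios ran from -0.39 to 1.06 and their changes at 75 mg/kg from -0.28 to 0.32, with a lowest adjusted p of 0.433 (limma). At chr4:129497990-129515290, 14 of 17 were members, with changes from -0.33 to 0.10 and a lowest adjusted p of 0.464 (limma). At chr5:74487385-74497428, 14 of 20 were members, with changes from -0.08 to 0.41 and a lowest adjusted p of 0.333 (limma).

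The 4 members with the highest mean Cy5 signal were chr19:5801802-5802597 R, chr11:22681800-22707775 R, chr7:108209996-108216032 R and chr14:78924115-78938125 F. None passed at any dose. The chr19 member read 1.41, 1.54, 1.73, 1.63 and -0.04 in controls. At 75 mg/kg it read 1.06, 1.19, 0.88 and 0.16. Its lowest readings in both groups, control 5 and replicate 20, were on slide 3, as was its lowest at 50 mg/kg (-0.66, replicate 15).

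Of 306 probes for noncoding RefSeq (NR_) transcripts 4 passed at 75 mg/kg, all higher, beside 0.855% of all probes tested (0.699% higher). Of a list of 33 well-known long noncoding RNAs, 17 were measured and none of these passed, with a median change of 0.00 and a range of -0.34 to 0.31. Malat1, an abundant nuclear transcript of splicing speckles, had a change of 0.23 ± 0.15, and Neat1, the scaffold of paraspeckles, of 0.09 ± 0.19. The Malat1 probe had a mean Cy5 signal of 8.67 log2 units and a control ratio of -2.63, against 12.43 and -0.39 for Neat1. Whether that probe reports the level of the whole Malat1 transcript was not tested. The maternally expressed Meg3 had a change of -0.13 ± 0.17 and Kcnq1ot1, which silences its imprinted cluster, of -0.34 ± 0.15 (limma adjusted p = 0.866 and 0.471).

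Some coding genes on lists for p53, the aryl hydrocarbon receptor and the interferon response rose at the same dose. Of 23 measured p53 targets 4 rose and none fell at 75 mg/kg (adjusted p under 0.05). Over all probes tested 0.699% passed higher and 0.156% lower. The 4 p53 targets were Pmaip1 (1.06 ± 0.14), Trp53inp1 (0.83 ± 0.11), Bbc3 (0.80 ± 0.13) and Aen (0.48 ± 0.10), which act in apoptosis. The median of the list was 0.18 and its range -0.21 to 1.06. Those not passing included Cdkn1a (0.39 ± 0.19) and Mdm2 (0.02 ± 0.14). Of 13 measured targets of the aryl hydrocarbon receptor 2 rose, Gsta1 (1.34 ± 0.29) and Gsta2 (1.09 ± 0.24), glutathione transferases that conjugate reactive metabolites. These 13 changes spread from -0.27 to 1.34 around a median of 0.19. No call was made for Cyp1b1 (-0.27 ± 0.20), Aldh3a1 (-0.11 ± 0.14), Nqo1 (0.08 ± 0.13) or Tiparp (0.12 ± 0.12). Cyp1a1 (0.21 ± 0.18), detected in Cy5 on only 5 arrays, did not pass either. Whether the receptor drove the 2 rises was not tested. Of 18 interferon-responsive genes 11 rose, beside the same 0.699% of all probes, with a median of 1.37. Over all probes the median change was -0.01.

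Markers of other cell types varied between animals. The glandular stomach list (8 of 11 measured) had a mean log2 ratio of 0.19 to 1.60 in controls, 0.53 to 5.35 at 25, 0.92 to 1.82 at 50 and 0.49 to 3.11 at 75 mg/kg, and none passed. The smooth muscle list had a median change of -0.40 at 75 mg/kg and array means of 3.88 to 4.53 in controls and 3.53 to 4.11 at 75 mg/kg; 0 of 10 passed. Of the adipocyte (median -0.68, 10 measured), nerve (-0.13, 9 measured), lymphocyte (-0.25, 7 measured) and proliferation lists (0.04, 11 measured) none passed. Of the macrophage and dendritic cell list 1 of 9 rose, Cd207 (0.98 ± 0.22), a marker of Langerhans cells. Of the squamous list 1 of 17 rose, Dsg1a (1.69 ± 0.33), a desmosomal cadherin, with a median of -0.02. The part of these differences in the members' changes was not tested.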

How the data were processed

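The authors deposited Agilent scanner tables, 1 for each array, holding each spot's intensity and local background in Cy5 and Cy3 (written, per the file headers, by Feature Extraction 10.7.3.1). The RNA input was 200 ng and the RNA integrity number above 6.6, per the labels' protocols. The authors also deposited a series table of log2 values, whose scale and direction no source used here states. Its columns correlated with the same arrays' log2 Cy5 over Cy3 ratios, computed without background correction, at 0.998 to 0.999, and their medians lay from -0.03 to -0.02. It served as an alternative. Its probe values matched a sample in every column (0 columns unmatched).

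From the deposited median signals and median local backgrounds, background was corrected with normexp (offset 50) and each array normalized by loess with its control spots (3671 of 62976 spots) at weight 0. Control spots and outlier spots were then left out, and spots of 1 probe averaged. Probes that passed the members' detection rule, position-named or not, were kept (27601); 14 single member values were missing and those arrays were dropped from that probe's fit.

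Group means of all 17 arrays were fitted with limma 3.58.1 in R 4.3.3 (lmFit, eBayes, two-sided, Benjamini-Hochberg over all kept probes, threshold 0.05). Errors after ± are standard errors of that fit. The method was tested on simulated data with independent noise and no slide effect. That test does not cover the slide differences seen here. For the lists of named genes the brightest kept probe of a symbol was used; 26413 probes had a symbol through their RefSeq transcript. The members and lists were chosen with earlier results of these data known. Members named are those passing at any dose or on the dose line, the 4 highest and 4 lowest control ratios, the 4 brightest, and the 3 intervals with most members. Alternatives were no background correction, processed signals, median centring, Cy5 alone, other detection filters, slide as a block, only the groups compared, 1 probe per region, the series table, and fits without each array or without slide 3.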

Additional observations from a re-analysis of the deposited data

Results flagged for a closer look

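Each group of 4 or 5 arrays was examined for a single array far from the rest, in 33 named members and 132 groups, and 5 arrays stood out; chance alone gives about 1 in 20 groups. Control replicate 2 read -0.61 for A_30_P01017680 on chromosome 10, while the other controls read -0.25 to -0.15. At 50 mg/kg replicate 12 read 0.60 for A_30_P01027753 on chromosome 4, while the others read -0.65 to -0.44. Control replicate 5 read -0.0355 for A_30_P01031754 on chromosome 19, while the other controls read 1.41 to 1.74. At 75 mg/kg replicate 20 read 0.52 for A_30_P01030669 on chromosome 7, while the others read 0.87 to 0.88. At 50 mg/kg replicate 15 read 3.98 for A_30_P01025870 on chromosome 2, while the others read 4.57 to 4.62. The arrays in the last 3 are all on slide 3, which stood apart over the members as a whole, and the part of the slide in these values was not tested.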

How the results depend on the processing

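The number of members passing at 75 mg/kg (20) was 8 with median centring, 35 with slide as a block and 9 with 1 probe per gene or region, and 7 to 28 when 1 array was left out. The number on the dose line (18) was 8, 47 and 10 under the same 3 settings, 32 from the Cy5 channel alone and 10 to 25 without 1 array. The number for 75 against 25 mg/kg (3) was 0 with processed signals, with median centring, with only the groups compared and without slide 3, 1 from Cy5 alone, 6 with slide as a block and 0 to 5 without 1 array. At 50 mg/kg it was 2 with slide as a block and 0 without any 1 array, and at 25 mg/kg 0 throughout the fits without 1 array. The median change of the members (-0.00724) was 0.0218 with processed signals, 0.0879 with median centring and -0.0239 for those detected on all arrays, and -0.0151 to -0.00324 without 1 array. Members numbered 8096 with detection taken from Cy3 in place of Cy5. Of 575 recomputed changes of the 21 named members, 431 kept their direction and side of the threshold, 144 kept their direction and lost the call, and 0 changed direction. The setting without slide 3 was chosen after seeing the data. The share of all probes passing under these alternatives was not worked out, and the cause of the shifts was not tested. Weak signals near background limit the ratios of dim members. No paired analysis was possible because the groups share no replicate numbers.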
